A study of Mus musculus with 18 samples.

Results

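Macrophages given the oxysterol 25-hydroxycholesterol (25HC) alone were set against macrophages given the Toll-like receptor 2 ligand PAM3 (Pam3CSK4, a synthetic bacterial lipopeptide) alone, with untreated macrophages as the common level. The libraries were chosen by their labels, 3 of each kind, 9 of the 18 in the series. All held polyadenylated RNA of macrophages that were differentiated in culture from bone marrow of C57BL/6 (B6) mice. The 25HC cells received 5 µM of 25HC for 18 h and no PAM3. The PAM3 cells received 300 ng/mL of PAM3 and no 25HC, with a stimulation time labelled 18 without a unit. The untreated cells received neither agent, carry the same mouse numbers 1 to 3, and are titled as the controls of the oxysterol treatment. A vehicle is not named in the labels, and whether cells without PAM3 were kept in culture as long as cells with it is not given. An effect of PAM3 and an effect of that time therefore cannot be told apart, in the comparison with untreated cells and in the direct comparison of 25HC with PAM3. Ch25h-/- macrophages, which lack the enzyme that makes 25HC, with the same PAM3 dose and untreated, are compared in 1 place. They give a PAM3 effect whose group means share no library with the 25HC effect. These libraries, and those of B6 cells given both agents at the same doses, also entered the fit. They therefore shape the standard errors and p-values of all comparisons.

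25HC is made from cholesterol by the enzyme encoded by Ch25h, which macrophages induce during infection. It holds the transcription factor SREBP2 in the endoplasmic reticulum, which lowers the genes of cholesterol synthesis and uptake, and it can activate the liver X receptors (LXR), which drive genes of cholesterol export. PAM3 is bound by a pair of Toll-like receptors, TLR2 with TLR1, which signal through MyD88 to NF-kB and MAP kinases and switch on inflammatory genes. Both kinds of stimulus can also reach the integrated stress response, in which phosphorylation of the translation factor eIF2α favours translation of ATF4, an activator of genes for amino acid supply.

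Counts per library, in units of 1000000, ran from 23.73 to 28.39 with 25HC, from 39.97 to 150.4 with PAM3 and from 30.75 to 68.55 untreated. The share of mitochondrial transcripts was 1.112 to 1.79%. In a principal component analysis of the 9 libraries the first component, with 74.55% of the variance, set PAM3 apart. On the second, with 14.19%, the 25HC libraries of mice 1, 2 and 3 lay at 52.08, 9.888 and 46.81 and the untreated ones at -11.18, -55.8 and -28.03. The PAM3 libraries lay at 0.00159, -10.09 and -3.685, so that mouse 2 stood lowest in each group. Counts that rest on the 25HC effect are therefore also given without replicate 2 of every group, or without any 1 library, where that moves them by more than 1.5 times.

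Levels are CPM, counts per 1000000 counts of a library after scaling of library sizes, listed for mice 1, 2 and 3, and differences are log2 fold changes ± standard error with 3 libraries a group. The errors come from a fit of all 18 libraries, so they are not the spread of the values listed beside them. A gene passed the test at an edgeR quasi-likelihood adjusted p below 0.05. Where the text says that no member of a list passed in some direction, the count was also 0 at an unadjusted p below 0.05 and with the Wald test of DESeq2. Of 12741 genes tested, 3334 (26.2%) passed with 25HC against untreated, 1886 higher (14.8%) and 1448 lower (11.4%). With PAM3 against untreated 7912 (62.1%) passed, 3988 higher (31.3%) and 3924 lower (30.8%). In the direct contrast of 25HC with PAM3, whose difference is taken from no untreated library, 6399 (50.2%) passed, 3298 higher with 25HC (25.9%) and 3101 lower (24.3%). Changes of at least 2-fold numbered 494 higher and 445 lower with 25HC, and 1538 higher and 2323 lower with PAM3. Gene spans are those of GENCODE M21 on GRCm38. In bulk RNA, fewer cells of a kind and less RNA per cell cannot be told apart.

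The 2 effects shared 1272 genes that were higher with both agents (9.98% of those tested) and 913 that were lower with both (7.17%). Opposite movement, which required a call against untreated for each agent and a call in the direct contrast, was found for 172 genes higher with 25HC and lower with PAM3 (1.35%) and for 138 genes lower with 25HC and higher with PAM3 (1.08%). With the mouse number as a block in the fit, the opposite counts were 277 and 213. Both effects are measured against the same 3 untreated libraries, so an error in those libraries moves both effects the same way, which favours shared calls and works against opposite ones. No test of the overlap was therefore made. Median log2 fold changes of the genes higher with both were 0.68 with 25HC and 0.93 with PAM3, and of those lower with both -0.80 with 25HC and -1.23 with PAM3. In the direct contrast 482 of the 1272 and 394 of the 913 passed, and PAM3 had the larger effect in 433 and 380 of these.

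A change of at least 2-fold with both agents was seen in 545 of the shared genes (4.28%). For 155 of them (1.22%) the 95% interval of the direct difference lay wholly within 2-fold, which bounds the difference between the agents and does not show that there was none: 6 of the 155 passed in the direct contrast, all with the larger effect under PAM3. Genes that passed with 25HC, did not pass with PAM3 and differed in the direct contrast numbered 298 higher (2.34%) and 250 lower (1.96%). The corresponding genes of PAM3 numbered 1920 higher (15.1%) and 2146 lower (16.8%). In Ch25h-/- cells 7897 genes (62.0%) passed with PAM3 against rest, and 1155 of the 1272 and 839 of the 913 shared genes passed there in the direction they had in B6, with none in the other direction. Of the opposite genes 143 of 172 and 115 of 138 did so, again with none in the other direction. Of the genes that passed with PAM3 and not with 25HC, 1667 of 1920 and 1980 of 2146 did so, and 1 of the 2146 went the other way. All these genes were chosen for passing with PAM3 in B6. Their agreement repeats the PAM3 effect and shows nothing about the 25HC effect.

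Single libraries moved these counts. The 3334 calls of 25HC became 1524 without 25HC library 1, 1612 without 25HC library 3, 2097 without untreated library 3 and 2491 without untreated library 2, of which the first 3 differ by more than 1.5 times. They became 5103 when replicate 2 of every group was left out. The genes higher with both became 681 without 25HC library 1 and 725 without 25HC library 3, and the opposite genes 86 and 53 without 25HC library 1 and 90 and 43 without 25HC library 3. The calls of PAM3 stayed between 7298 and 7995 when any 1 library was left out.

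**Figure D1:**
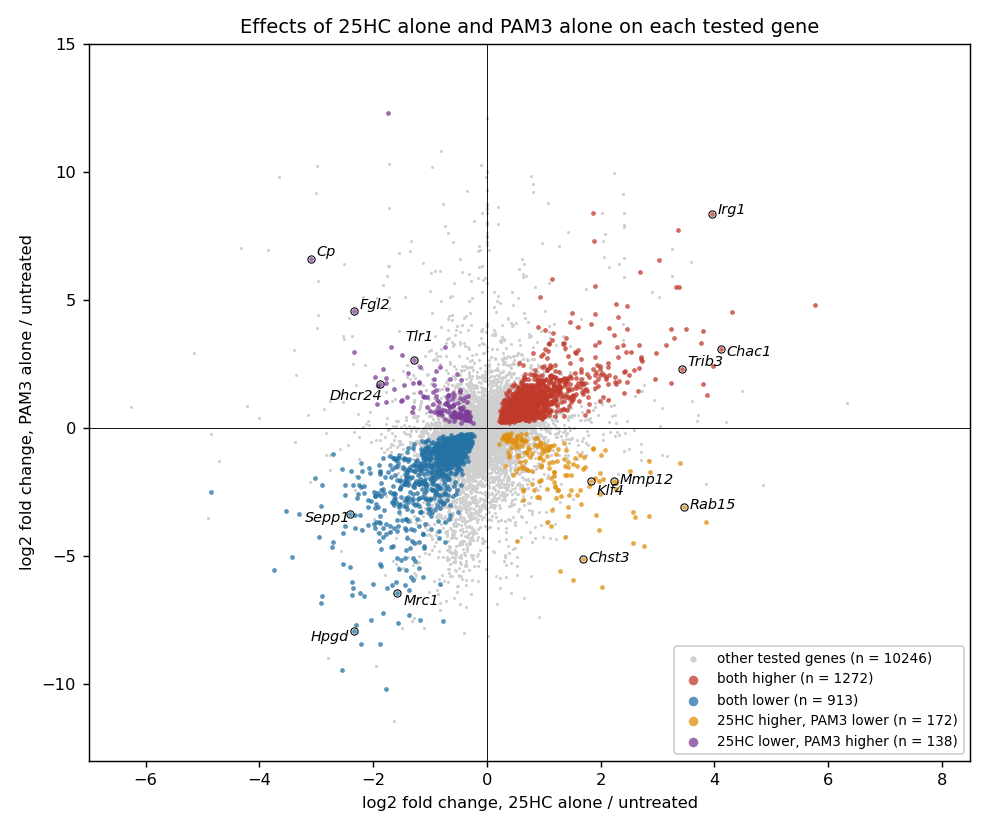
Each point is a tested gene, placed by its log2 fold change with 25HC alone over untreated (horizontal) and with PAM3 alone over untreated (vertical). Colours mark the 1272 genes higher with both, the 913 lower with both, the 172 higher with 25HC and lower with PAM3 and the 138 lower with 25HC and higher with PAM3, and the spread is wider along the PAM3 axis.

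Genes of the integrated stress response rose with both agents. Of 27 listed and tested genes of this response, 23 rose with 25HC and 23 with PAM3, none fell with either, and 20 rose with both. Of all tested genes 14.8% rose with 25HC, 31.3% with PAM3 and 9.98% with both. Without untreated library 1, 1 of the 27 fell with 25HC. Median log2 fold changes were 1.65 with 25HC and 1.49 with PAM3, against -0.01 and 0.00 over all tested genes, and the median direct difference was -0.01. When any 1 library was left out, 19 to 23 rose with 25HC, and 25 rose when replicate 2 of every group was left out. In the direct contrast 6 were higher with 25HC and 4 were lower, shares near or below the 25.9% and 24.3% of all tested genes. The 4 became 2 without 25HC library 2 and 2 without 25HC library 3. For 11 of the 27 the 95% interval of the direct difference lay within 2-fold.

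Atf4 (chr15:80255184-80257541 on the plus strand), the transcription factor of the response, had 402, 283 and 362 CPM with 25HC, 323, 345 and 421 CPM with PAM3 and 128, 88.0 and 103 CPM untreated. The libraries of both agents overlapped each other and lay wholly above the untreated ones. The log2 fold change was 1.72 ± 0.19 with 25HC and 1.77 ± 0.18 with PAM3 (edgeR adjusted p = 4.3e-05 and 1.7e-06), and the direct difference was -0.06 with a 95% interval from -0.45 to 0.34. Asns, asparagine synthetase, had 172, 85.3 and 141 CPM with 25HC, 127, 111 and 163 CPM with PAM3 and 30.1, 10.8 and 20.5 CPM untreated. Its direct difference was -0.01, with an interval from -0.90 to 0.89.

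Trib3 and Chac1 were among the members whose 25HC libraries all stood above those of PAM3. Trib3, a pseudokinase induced by ATF4, had 85.4, 47.2 and 63.7 CPM with 25HC, 25.1, 30.5 and 34.7 CPM with PAM3 and 7.76, 5.25 and 5.34 CPM untreated. The 3 groups did not overlap, and the direct difference was 1.12 ± 0.23 (edgeR adjusted p = 0.00086). Chac1, which degrades glutathione, had 27.7, 12.8 and 22.7 CPM with 25HC, 8.91, 10.4 and 11.7 CPM with PAM3 and 2.41, 0.557 and 0.893 CPM untreated, and its direct difference of 1.03 ± 0.46 missed the threshold (edgeR adjusted p = 0.08). Slc7a11, the cystine transporter, went further with PAM3: 13.8, 2.47 and 8.79 CPM with 25HC, 79.0, 12.3 and 21.7 CPM with PAM3 and 1.3, 0.488 and 0.852 CPM untreated, a direct difference of -2.17 ± 0.70 (edgeR adjusted p = 0.021). Its call with 25HC was lost without 25HC library 1 or untreated library 2, and that of the direct difference without 25HC library 2, 25HC library 3 or PAM3 library 1.

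Among the members that passed with 25HC and missed the threshold with PAM3, 2 also differed in the direct contrast. Ddit3, the stress factor CHOP, had 129, 125 and 100 CPM with 25HC, 55.2, 68.2 and 71.3 CPM with PAM3 and 57.2, 74.0 and 45.5 CPM untreated, and the direct difference was 0.86 ± 0.16 (edgeR adjusted p = 0.00037). Ppp1r15a, the phosphatase subunit GADD34 that reverses eIF2α phosphorylation, differed directly by 0.70 ± 0.15 (edgeR adjusted p = 0.0012). The 25HC libraries of both genes lay above all others, whereas those of PAM3 overlapped the untreated ones.

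The 20 cytosolic tRNA synthetases, which load amino acids onto tRNA, moved with this group. With 25HC 17 rose and with PAM3 19 rose, the same 17 among them. Of all tested genes 14.8% rose with 25HC, 31.3% with PAM3 and 9.98% with both. None of the 20 was higher with 25HC in the direct contrast while 4 were lower, a share near the 24.3% of all tested genes. Those 4 became 2 without 25HC library 2 and 2 without PAM3 library 3. Medians of the 20 were 0.91 with 25HC and 1.20 with PAM3, and for 19 of the 20 the interval of the direct difference lay within 2-fold. Such intervals were also found for 16 of 20 chaperone genes and 28 of 32 respiratory chain genes described below, which passed more often with PAM3. The count therefore does not show that the agents acted alike. Aars, for alanine, had 357, 229 and 318 CPM with 25HC, 358, 385 and 438 CPM with PAM3 and 136, 74.4 and 96.8 CPM untreated. Mars, for methionine, differed directly by 0.24, with an interval from -0.19 to 0.67, and Iars, for isoleucine, by -0.04, with one from -0.49 to 0.40. Qars, for glutamine, was the exception: it had 119, 140 and 114 CPM with 25HC, 100, 100 and 122 CPM with PAM3 and 119, 164 and 129 CPM untreated, and it fell slightly with PAM3 (-0.36 ± 0.13, edgeR adjusted p = 0.031), a call lost without PAM3 library 1, PAM3 library 2 or untreated library 2.

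Promoters of these genes are shown because they hold the letters of the composite element that ATF4 forms with C/EBP factors. The sequences come from RefSeq on GRCm38.p6, each 5′ to 3′ on the strand of the gene, and capitals mark a match to TGATGNAA on either strand. The window lies at chr2:119351013-119351092 on the plus strand for Chac1, at chr2:152344011-152344082 on the minus strand for Trib3, at chr6:7693189-7693268 on the minus strand for Asns and at chr8:111033694-111033773 on the plus strand for Aars.
Chac1: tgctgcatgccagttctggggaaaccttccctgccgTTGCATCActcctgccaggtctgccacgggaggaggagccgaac
Trib3: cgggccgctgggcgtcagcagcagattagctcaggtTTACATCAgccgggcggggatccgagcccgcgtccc
Asns: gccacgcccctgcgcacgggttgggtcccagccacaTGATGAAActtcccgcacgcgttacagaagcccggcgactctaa
Aars: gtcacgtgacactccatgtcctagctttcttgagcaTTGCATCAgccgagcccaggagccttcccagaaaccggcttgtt

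Among 300-base promoters, TGATGNAA stood in 6 of 30 promoters of the stress response list and in 5 of 12 of the tRNA synthetases (41.7%), against 3.97% of all 32851 promoters. Promoters were at hand for 25 of the 27 stress response genes and 12 of the 20 synthetases. A match is a description of the letters and not of binding. Each promoter was searched on both strands, and matches to different motifs were allowed to overlap.

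**Figure D2:**
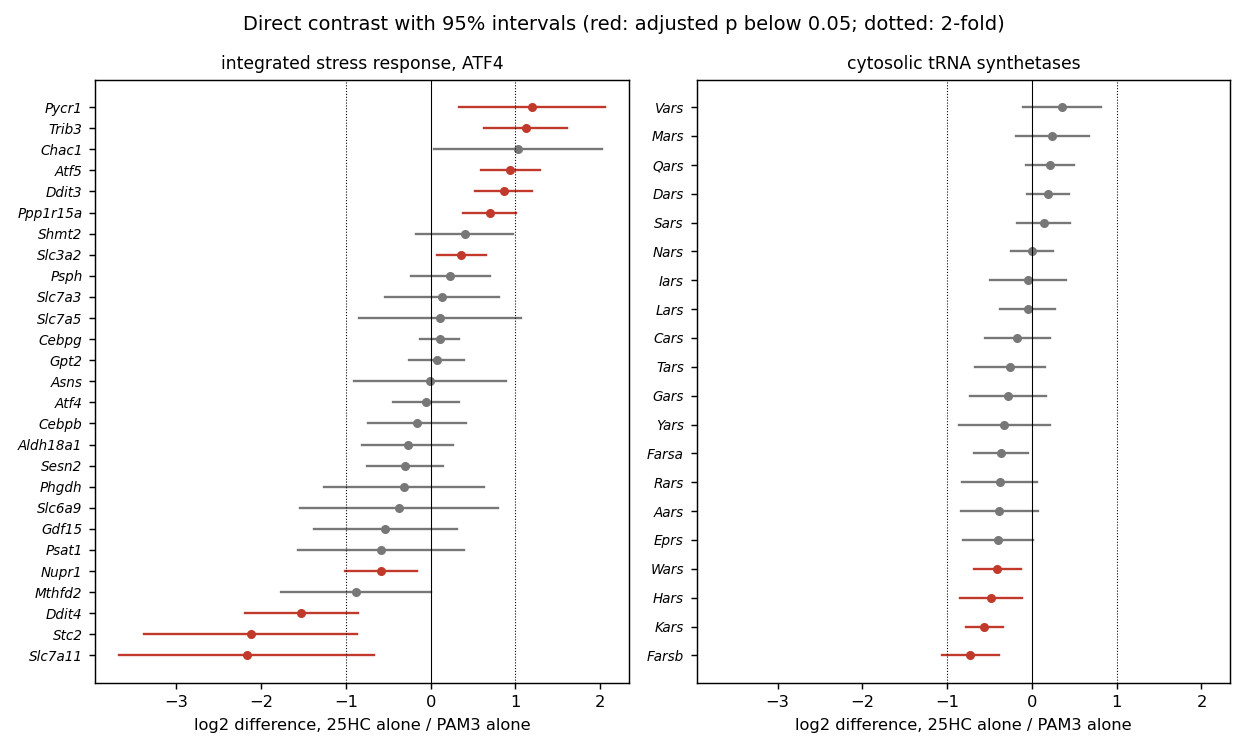
Log2 difference of 25HC alone over PAM3 alone (horizontal) with its 95% interval for each tested gene of the integrated stress response list (left) and of the cytosolic tRNA synthetases (right). Red marks an edgeR adjusted p below 0.05 and dotted lines mark 2-fold in either direction, within which 11 of 27 intervals lay on the left and 19 of 20 on the right.

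Genes outside the lists, here and below, were named only if the libraries of the groups they separate did not overlap, so that a lack of overlap in them is no finding. Aldh1l2 and Mettl1, a mitochondrial folate enzyme and a tRNA methyltransferase, had direct differences of 0.05 (interval -0.55 to 0.65) and -0.07 (interval -0.70 to 0.56) after rises of more than 2-fold with both agents. Gpr84, a receptor for medium-chain fatty acids, had 104, 18.6 and 58.9 CPM with 25HC, 118, 78.4 and 82.2 CPM with PAM3 and 10.3, 3.86 and 5.34 CPM untreated. For each of these 3 genes the libraries of both agents lay above the untreated ones, and each remained called with both agents when any 1 library was left out.

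Chaperones of the endoplasmic reticulum and genes of the unfolded protein response were moved further by PAM3. Of 20, 9 rose with 25HC and 18 with PAM3, all 9 among the 18. Of all tested genes 14.8% rose with 25HC, 31.3% with PAM3 and 9.98% with both. In the direct contrast 9 were lower with 25HC, against 24.3% of all tested genes. This count of 9 became 5 without 25HC library 1, 4 without 25HC library 2 and 5 without PAM3 library 3. Hspa5, the chaperone BiP, had 2062, 1921 and 2098 CPM with 25HC, 1779, 1786 and 2109 CPM with PAM3 and 1396, 795 and 1150 CPM untreated, a direct difference of 0.10 with an interval from -0.32 to 0.52. Hyou1, a chaperone of the same compartment, differed directly by -0.59 ± 0.19 (edgeR adjusted p = 0.018).

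Inflammatory genes passed more often with PAM3 than with 25HC. Of 26 cytokines and mediators, 5 rose with 25HC and 19 with PAM3, and 18 were lower with 25HC in the direct contrast, against 14.8%, 31.3% and 24.3% of all tested genes. Median log2 fold changes were 0.83 with 25HC and 3.71 with PAM3. The 5 became 0 without 25HC library 1, 3 without untreated library 3 and 8 without replicate 2 of every group. With 25HC 2 fell, a share near or below the 11.4% of all tested genes. The 2 became 1 without any 1 of the 25HC libraries, PAM3 library 2, untreated library 2 or untreated library 3. Il1b, the pro-inflammatory interleukin-1β, had 2.14, 1.01 and 3.44 CPM with 25HC, 2756, 798 and 1421 CPM with PAM3 and 4.95, 4.49 and 2.04 CPM untreated. Tnf, the cytokine TNF, was 1 of 3 members that rose with both, a share near the 9.98% of all tested genes. It had 134, 29.3 and 87.5 CPM with 25HC, 267, 190 and 205 CPM with PAM3 and 36.2, 11.0 and 17.5 CPM untreated. The 25HC library of mouse 2 lay within the untreated range, and the call with 25HC (1.96 ± 0.47, edgeR adjusted p = 0.0096) was lost without 25HC library 1.

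Of 20 chemokines 3 rose with 25HC, a share near the 14.8% of all tested genes, and 15 rose with PAM3, against 31.3% of all tested genes. Their median log2 fold changes were 0.64 with 25HC and 2.06 with PAM3. The 3 became 6 without untreated library 1, 6 without replicate 2 of every group and 9 with the replicate block. Ccl5, which attracts T cells and monocytes, had 8.20, 5.51 and 2.22 CPM with 25HC, 829, 605 and 988 CPM with PAM3 and 8.31, 6.65 and 2.55 CPM untreated. Cxcl14, a chemokine of epithelia and other tissues, passed with 25HC and not with PAM3 (8.59, 8.58 and 9.08 CPM, against 2.22, 2.85 and 2.62 CPM with PAM3 and 4.91, 2.73 and 2.99 CPM untreated), with a direct difference of 1.77 ± 0.23 (edgeR adjusted p = 1.5e-05). It did not keep this pattern in every fit that left out 1 library.

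Of 26 NF-kB subunits, feedback genes and targets, 11 rose with 25HC and 21 with PAM3, and 19 were lower with 25HC in the direct contrast, against 14.8%, 31.3% and 24.3% of all tested genes. The 11 became 21 without replicate 2 of every group. Nfkbia, the inhibitor IκBα that NF-kB itself induces, had 242, 101 and 190 CPM with 25HC, 803, 923 and 888 CPM with PAM3 and 78.7, 87.3 and 73.7 CPM untreated. All 3 groups were apart, with rises of 1.15 ± 0.23 and 3.45 ± 0.23. Traf1, a signalling adaptor of TNF receptors, reached a like level with both agents: 198, 77.7 and 140 CPM with 25HC, 187, 96.6 and 138 CPM with PAM3 and 33.9, 35.6 and 30.5 CPM untreated, a direct difference of -0.02 with an interval from -0.84 to 0.79. Rela, the NF-kB subunit p65, had 150, 125 and 143 CPM with 25HC, 81.9, 84.8 and 91.4 CPM with PAM3 and 88.1, 107 and 88.9 CPM untreated, and differed directly by 0.70 ± 0.09 (edgeR adjusted p = 2.2e-05). A further member, Irak3, an inhibitor of Toll-like receptor signalling, rose 3.30 ± 0.14 with PAM3 and had 47.5, 39.9 and 39.8 CPM with 25HC, within the untreated range or just under it.

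Enzymes of immune metabolism were shared in part. Of 24 genes of glycolysis and the hypoxia response 9 rose with 25HC and 23 with PAM3, and 21 were lower with 25HC in the direct contrast, against 14.8%, 31.3% and 24.3% of all tested genes. The 9 became 5 without 25HC library 1, 25HC library 3, untreated library 2 or untreated library 3, and 15 without replicate 2 of every group. Hk2, a hexokinase, had 70.0, 41.9 and 63.3 CPM with 25HC, 272, 266 and 265 CPM with PAM3 and 32.4, 24.1 and 25.6 CPM untreated. Pfkp, an isoform of phosphofructokinase, went the other way in the direct contrast: 531, 299 and 451 CPM with 25HC, 209, 163 and 205 CPM with PAM3 and 156, 81.4 and 115 CPM untreated, a direct difference of 1.15 ± 0.30 (edgeR adjusted p = 0.0055). Its change with PAM3 missed the threshold (edgeR adjusted p = 0.053) and passed with the replicate block (edgeR adjusted p = 0.0006).

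Irg1, the older symbol of Acod1, makes itaconate, a metabolite of activated macrophages. It had 184, 25.3 and 71.5 CPM with 25HC, 2813, 1195 and 1841 CPM with PAM3 and 10, 4.25 and 3.97 CPM untreated. The groups did not overlap, with rises of 3.96 ± 0.68 and 8.34 ± 0.68 and a direct difference of -4.38 ± 0.66 (edgeR adjusted p = 0.0021, 2.3e-06 and 0.00022). Odc1, the enzyme that starts polyamine synthesis, had 110, 55.1 and 100 CPM with 25HC, 21.6, 24.3 and 26.0 CPM with PAM3 and 35.6, 28.5 and 29.9 CPM untreated. It rose with 25HC and differed directly by 1.88 ± 0.23 (edgeR adjusted p = 0.0005 and 9.5e-06), and its PAM3 effect, which did not pass (edgeR adjusted p = 0.15), passed without replicate 2 of every group. Nos2, the inducible nitric oxide synthase, rose with PAM3 to 17.3, 3.62 and 12.4 CPM, against at most 0.277 CPM in any 25HC library and at most 0.0927 CPM in any untreated one.

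**Figure D3:**
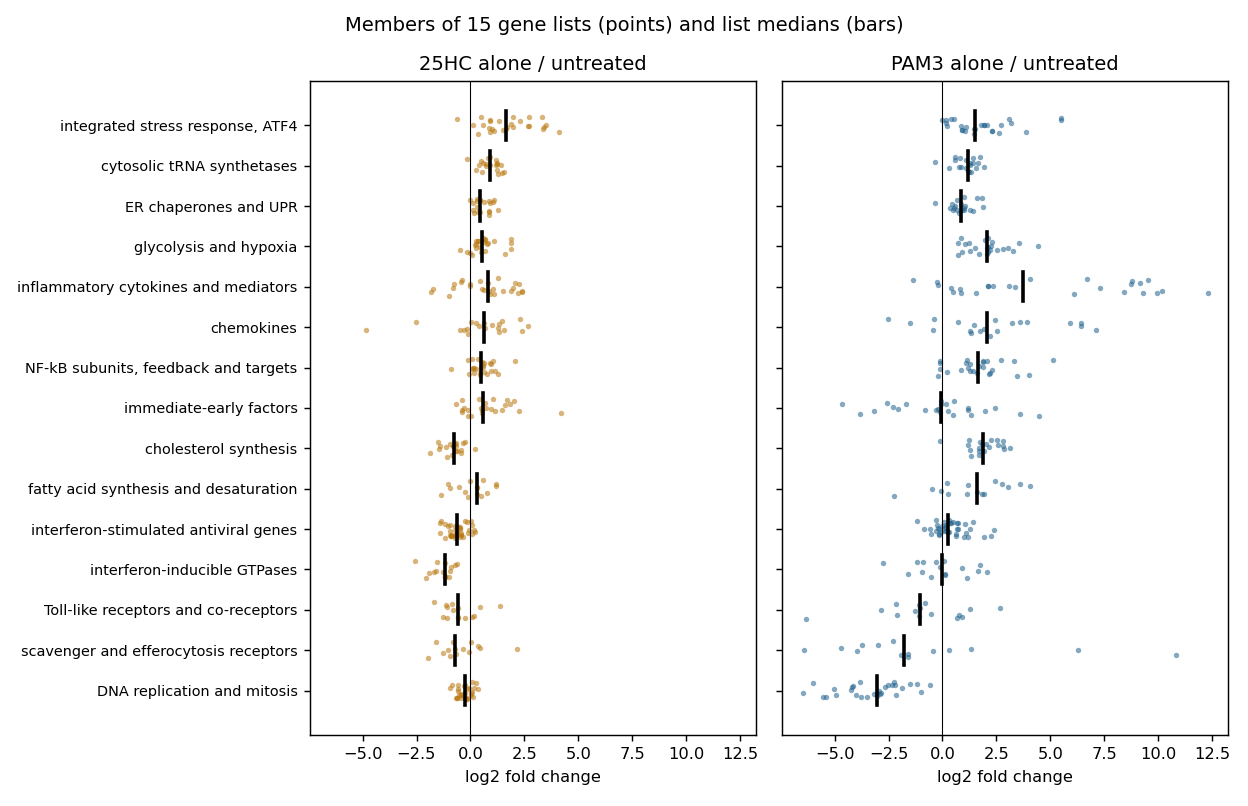
Log2 fold changes of the tested members of 15 gene lists (points) and the list medians (bars), with 25HC alone over untreated on the left and PAM3 alone over untreated on the right. The stress response medians were 1.65 and 1.49, those of cholesterol synthesis -0.75 and 1.88, and those of DNA replication and mitosis -0.27 and -3.04.

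Among the genes lower with both agents, F13a1, the A subunit of coagulation factor XIII, had 2.10, 7.57 and 3.80 CPM with 25HC, 2.76, 5.81 and 3.54 CPM with PAM3 and 24.9, 36.3 and 39.9 CPM untreated. Its direct difference was 0.13, with an interval from -0.83 to 1.09. Sepp1, the older symbol of Selenop for a secreted selenium carrier, had 349, 1607 and 469 CPM with 25HC, 311, 446 and 485 CPM with PAM3 and 2302, 6562 and 3957 CPM untreated. Siglec1, a sialic acid receptor of tissue macrophages, had 475, 603 and 297 CPM with 25HC, 398, 411 and 442 CPM with PAM3 and 1082, 1483 and 809 CPM untreated, and its direct difference of 0.14 had an interval from -0.46 to 0.73. In these genes the libraries of both agents overlapped and all lay below the untreated ones.

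Other shared losses went further with PAM3. Ccr2, the chemokine receptor of inflammatory monocytes, had 97.4, 133 and 111 CPM with 25HC, 12.5, 9.54 and 11.8 CPM with PAM3 and 264, 246 and 361 CPM untreated, falling by 1.35 ± 0.20 with 25HC and by 4.69 ± 0.20 with PAM3. Mrc1, the mannose receptor, had 655, 1558 and 819 CPM with 25HC, 32.1, 44.6 and 28.2 CPM with PAM3 and 3172, 2595 and 3278 CPM untreated. Its fall with 25HC (edgeR adjusted p = 0.025) was lost without 25HC library 1, 25HC library 3 or untreated library 3. Hpgd, which breaks down prostaglandins, had 4.32, 21.4 and 9.85 CPM with 25HC, 0.255, 0.249 and 0.225 CPM with PAM3 and 30.3, 83.9 and 66.4 CPM untreated. Irf4, a transcription factor of alternative activation, and Gpr34, a receptor for lysophosphatidylserine, had the same order of groups, with direct differences of 2.79 ± 0.63 and 3.94 ± 0.86 (edgeR adjusted p = 0.0021 and 0.00099).

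Genes of sterol synthesis were lower with 25HC than with PAM3. None of 20 enzymes from acetoacetyl-CoA to cholesterol rose with 25HC and 7 fell, against 11.4% lower among all tested genes. With PAM3 19 rose, against 31.3% of all tested genes. The same number of 19 was lower with 25HC in the direct contrast, against 24.3% of all tested genes. Median log2 fold changes were -0.75 with 25HC and 1.88 with PAM3, and the median direct difference was -2.78. The direct count stayed at 19 when any 1 library was left out, with the replicate block and with DESeq2. The 7 falls with 25HC were less firm: they became 1 without 25HC library 1 and 1 without 25HC library 3, 2 without untreated library 1 and 2 without untreated library 3, and 4 without 25HC library 2. They became 14 with the replicate block and 17 without replicate 2 of every group.

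Hmgcs1, which makes the precursor of mevalonate, had 24.0, 25.6 and 24.8 CPM with 25HC, 202, 155 and 179 CPM with PAM3 and 58.8, 29.7 and 53.4 CPM untreated. The 25HC libraries lay closely together below the untreated ones, of which that of mouse 2 was nearest and the direct difference was -2.85 ± 0.29 (edgeR adjusted p = 2.3e-06). The change with 25HC was -0.93 ± 0.29 (edgeR adjusted p = 0.029), and its call was lost without 25HC library 1, 25HC library 3, untreated library 1 or untreated library 3. Tm7sf2, a sterol reductase, was the member that kept its opposite calls when any 1 library was left out, with 4.75, 5.73 and 4.31 CPM with 25HC, 19.5, 27.2 and 29.0 CPM with PAM3 and 10.7, 12 and 9.51 CPM untreated. Ebp, a sterol isomerase, passed in none of the 3 comparisons.

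The Hmgcs1 promoter is shown for the SREBP motif it is known for. The window lies at chr13:119690178-119690258 on the plus strand of GRCm38.p6, and capitals mark a match to TCACNCCAC.
Hmgcs1: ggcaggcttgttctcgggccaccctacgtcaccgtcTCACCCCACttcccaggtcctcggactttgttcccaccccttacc

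Among 18 promoters of 15 of the 20 enzymes this was the one with the motif (5.56%), against 1.24% of all promoters. Of 15 liver X receptors and their targets, 2 rose and 1 fell with 25HC, shares near the 14.8% and 11.4% of all tested genes. The 2 became 4 without untreated library 2 and 5 without replicate 2 of every group, and the 1 became 0 without 25HC library 1, 25HC library 3 or untreated library 2, 2 without replicate 2 of every group and 4 with the replicate block. Abcg1, which exports cholesterol, had 609, 698 and 632 CPM with 25HC, 234, 244 and 266 CPM with PAM3 and 240, 418 and 300 CPM untreated, and differed directly by 1.38 ± 0.22 (edgeR adjusted p = 0.0001). Abca1, its partner in export, had 922, 1423 and 1072 CPM with 25HC, 919, 692 and 489 CPM with PAM3 and 642, 1574 and 994 CPM untreated, and passed in none of the 3 comparisons. Nr1h3, the receptor LXRα, had 15.2, 12.5 and 14.5 CPM with 25HC, 84.2, 104 and 102 CPM with PAM3 and 10.4, 11.7 and 11.4 CPM untreated, and rose with PAM3 by 3.11 ± 0.16. Arl4c, an LXR target known from several cell types, moved oppositely: 396, 471 and 431 CPM with 25HC, 50.6, 51.5 and 56.7 CPM with PAM3 and 215, 353 and 269 CPM untreated.

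Most interferon-inducible GTPases tested were lower with 25HC. The 16 tested GTPases were of the IRG and GBP families, which attack vacuoles of intracellular microbes, with Gvin1 as a member outside these families. Of the 16, 13 fell with 25HC and none rose, against 11.4% lower among all tested genes. With PAM3 4 rose and 4 fell, shares near or below the 31.3% and 30.8% of all tested genes, and in the direct contrast 10 were lower with 25HC (24.3% over all) and 1 was higher. The 13 became 8 without 25HC library 1, 4 without 25HC library 3 and 7 without untreated library 2, and 16 without replicate 2 of every group. Of 40 interferon-stimulated antiviral genes 14 fell with 25HC and 11 rose with PAM3, and 29 were lower with 25HC in the direct contrast, against 11.4%, 31.3% and 24.3% of all tested genes. The 14 became 2 without 25HC library 3, 7 without untreated library 1, 9 without 25HC library 1 and 9 without untreated library 2, and 21 with the replicate block. The 11 became 20 without replicate 2 of every group. Counts of such near-identical family members are uncertain, since the handling of reads that align to several places is not given.

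Irgm2 had 48.1, 58.5 and 33.0 CPM with 25HC, 97.6, 91.8 and 102 CPM with PAM3 and 94.8, 103 and 83.3 CPM untreated. It fell with 25HC (-1.01 ± 0.16, edgeR adjusted p = 0.00077), and its PAM3 libraries overlapped the untreated ones. Igtp, whose span in GENCODE M21 overlaps that of Irgm2, moved oppositely, with 30.2, 28.5 and 19.4 CPM with 25HC, 79.3, 78.6 and 105 CPM with PAM3 and 43.5, 40.7 and 35.1 CPM untreated. Its fall with 25HC (edgeR adjusted p = 0.024) was lost without 25HC library 3, untreated library 1 or untreated library 2. Gbp7 had 10.8, 19.9 and 7.08 CPM with 25HC, 95.4, 40.4 and 38.7 CPM with PAM3 and 35.6, 81.3 and 41.8 CPM untreated. Gbp9 was lower with both, with 29.3, 48.1 and 20.8 CPM with 25HC, 53.6, 38.8 and 35.4 CPM with PAM3 and 99.1, 98 and 89.0 CPM untreated. The gene listed as Gbp5, which GENCODE M21 names Gbp2b, had 2.93, 4.01 and 2.06 CPM with 25HC, 46.9, 25.1 and 32.3 CPM with PAM3 and 7.42, 18.7 and 7.44 CPM untreated, and its fall with 25HC was lost without 25HC library 1, 25HC library 3 or untreated library 2. Mx1, an antiviral GTPase of the other list, had 34.0, 44.1 and 21.2 CPM with 25HC, 109, 107 and 139 CPM with PAM3 and 87.1, 99.5 and 80.4 CPM untreated.

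The promoters of 3 of these GTPases are shown for the core of the interferon-stimulated response element, GAAANNGAA, which capitals mark on either strand. They lie on GRCm38.p6 at chr11:58199486-58199566 for Igtp, chr11:58214877-58214957 for Irgm2 and chr3:142530248-142530328 for Gbp7, all on the plus strand.
Igtp: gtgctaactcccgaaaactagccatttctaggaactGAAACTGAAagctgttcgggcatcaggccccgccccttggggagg
Irgm2: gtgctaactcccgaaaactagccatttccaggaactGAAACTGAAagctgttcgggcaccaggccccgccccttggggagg
Gbp7: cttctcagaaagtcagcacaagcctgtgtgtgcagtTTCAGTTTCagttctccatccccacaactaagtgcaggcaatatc

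The windows of Igtp and Irgm2 differ at 2 of 81 positions, although Igtp rose with PAM3 and Irgm2 did not pass with it. GAAANNGAA stood in 9 of 11 promoters of these GTPases (81.8%) and in 17 of 36 of the antiviral list (47.2%), against 8.56% of all promoters. Promoters were at hand for 10 of the 16 GTPases and 28 of the 40 antiviral genes.

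The genes of both partners of TLR2 were moved oppositely, and Tlr2 itself was not. Tlr1 (chr5:64924679-64933563 on the minus strand), the partner of TLR2 in binding PAM3, had 29.5, 40.0 and 27.5 CPM with 25HC, 533, 492 and 473 CPM with PAM3 and 79.2, 73.7 and 84.4 CPM untreated. It fell by 1.29 ± 0.13 with 25HC and rose by 2.66 ± 0.13 with PAM3, and the direct difference was -3.95 ± 0.13 (edgeR adjusted p = 3.5e-05, 2e-09 and 8.3e-11). Tlr6, the other partner of TLR2, had 12.1, 15.5 and 12.4 CPM with 25HC, 42.0, 35.2 and 35.7 CPM with PAM3 and 20.9, 24.5 and 24.7 CPM untreated. The 3 groups of both genes were apart, and their calls held when any 1 library was left out. Tlr2 itself had 273, 151 and 198 CPM with 25HC, 420, 306 and 358 CPM with PAM3 and 127, 180 and 145 CPM untreated. It rose with PAM3 (1.26 ± 0.20), and with 25HC the 0.46 ± 0.20 did not pass (edgeR adjusted p = 0.094), but passed without 25HC library 2 (edgeR adjusted p = 0.02).

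Of 15 Toll-like receptors and co-receptors 8 fell with 25HC and 9 with PAM3, 5 of them with both, against 11.4%, 30.8% and 7.17% of all tested genes. The 8 became 4 without 25HC library 1, 25HC library 3 or untreated library 3. Tlr7, which senses single-stranded RNA, had 224, 323 and 207 CPM with 25HC, 175, 106 and 107 CPM with PAM3 and 558, 535 and 579 CPM untreated. Tlr13, a sensor of bacterial ribosomal RNA in mice, fell with PAM3 alone, to 102, 91.2 and 79.3 CPM, against 717, 739 and 665 CPM with 25HC and 851, 476 and 663 CPM untreated. Ch25h, the gene of the enzyme that makes 25HC, had 40.8, 16.3 and 25.8 CPM with 25HC, 3.55, 1.66 and 2.14 CPM with PAM3 and 20.4, 3.16 and 10.2 CPM untreated. It fell with PAM3 (-2.21 ± 0.51, edgeR adjusted p = 0.002) and differed directly by 3.51 ± 0.51, while with 25HC the 1.31 ± 0.49 missed the threshold (edgeR adjusted p = 0.065) and passed with the replicate block (edgeR adjusted p = 0.0047) and without 25HC library 2 or untreated library 1.

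Further genes were lower with 25HC and higher with PAM3. Emr1, the older symbol of Adgre1 for the macrophage antigen F4/80, had 1299, 1698 and 1275 CPM with 25HC, 11536, 12755 and 12835 CPM with PAM3 and 2397, 2917 and 2610 CPM untreated. Fgl2, a membrane prothrombinase, had 6.89, 18.2 and 6.79 CPM with 25HC, 1288, 1440 and 1079 CPM with PAM3 and 43.9, 64.3 and 52.6 CPM untreated, a direct difference of -6.90 ± 0.41. Cp, the copper-carrying ferroxidase ceruloplasmin, had 0.633, 1.46 and 0.547 CPM with 25HC, 821, 721 and 636 CPM with PAM3 and 2.91, 12.7 and 6.52 CPM untreated, a direct difference of -9.70 ± 0.67 (edgeR adjusted p = 1.4e-07). The Emr1, Fgl2 and Cp libraries were lowest with 25HC and highest with PAM3. Ms4a6c, a membrane protein of macrophages with close paralogs, had 89.1, 126 and 65.7 CPM with 25HC, 1329, 1133 and 1297 CPM with PAM3 and 282, 390 and 292 CPM untreated. Il10, the anti-inflammatory cytokine, had 0.752, 1.84 and 0.965 CPM with 25HC, 14.7, 22.5 and 25.6 CPM with PAM3 and 4.45, 3.76 and 4.36 CPM untreated, with a fall of 1.82 ± 0.31 with 25HC and a rise of 2.32 ± 0.27 with PAM3 (edgeR adjusted p = 0.0011 and 5.7e-06).

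The promoter of Cp, which had the widest direct difference of these 5 genes, is shown with capitals for a kB-like match to GGNNTTTCC. The window lies at chr3:19957067-19957147 on the plus strand of GRCm38.p6.
Cp: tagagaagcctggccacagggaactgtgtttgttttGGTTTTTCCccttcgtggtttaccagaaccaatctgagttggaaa

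Of 8 promoters of the named genes lower with 25HC and higher with PAM3, 3 held this kB-like motif (37.5%, against 5.82% of all promoters), 3 held the AP-1 motif TGANTCA (37.5%, against 7.81%) and 2 held GAAANNGAA (25.0%, against 8.56%). In the NF-kB list the kB-like motif stood in 10 of 27 (37.0%). These promoters were of 7 of the 10 named genes and of 21 of the 26 NF-kB genes.

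The reverse pattern was higher with 25HC and lower with PAM3. Mmp12 (chr9:7344381-7369499 on the plus strand), the macrophage elastase, had 677, 552 and 710 CPM with 25HC, 40.3, 20.4 and 37.6 CPM with PAM3 and 145, 110 and 158 CPM untreated. It rose by 2.23 ± 0.57 with 25HC and fell by 2.07 ± 0.57 with PAM3, and the direct difference was 4.31 ± 0.57 (edgeR adjusted p = 0.013, 0.0065 and 6e-05). Klf4, a transcription factor of monocyte differentiation, had 94.7, 59.5 and 93.1 CPM with 25HC, 4.57, 5.58 and 6.36 CPM with PAM3 and 23.6, 22.8 and 23.3 CPM untreated. Cdkn1c, the cell cycle inhibitor p57, had 11.5, 10.8 and 14.8 CPM with 25HC, 0.358, 0.313 and 0.253 CPM with PAM3 and 2.81, 3.33 and 3.61 CPM untreated. All 3 genes kept the pattern when any 1 library was left out.

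Chst3, a chondroitin sulfotransferase, had 26.8, 18.7 and 30.1 CPM with 25HC, 0.383, 0.164 and 0.169 CPM with PAM3 and 10, 5.50 and 8.06 CPM untreated, a direct difference of 6.82 ± 0.40. Nes, the intermediate filament nestin, had 240, 114 and 245 CPM with 25HC, 8.73, 8.43 and 8.44 CPM with PAM3 and 75.8, 21.9 and 53.8 CPM untreated. Its rise with 25HC (edgeR adjusted p = 0.012) was lost without 25HC library 1. Cd276, the checkpoint ligand B7-H3, Atp2b4, a calcium pump of the plasma membrane, and Rab15, a small GTPase of endosomes, had direct differences of 4.03 ± 0.46, 4.03 ± 0.30 and 6.53 ± 0.49.

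Immediate-early factors differed between the agents. Of 24, 13 rose with 25HC, against 14.8% of all tested genes, and none fell. With PAM3 7 rose and 9 fell, shares near the 31.3% and 30.8% of all tested genes. In the direct contrast 15 were higher with 25HC, against 25.9% of all tested genes. The 13 became 8 without 25HC library 3. Fos had 97.6, 39.5 and 84.0 CPM with 25HC, 52.1, 63.2 and 58.3 CPM with PAM3 and 26.8, 20 and 22 CPM untreated, and its direct difference was 0.35, with an interval from -0.23 to 0.93. Fosb moved oppositely: 2.34, 2.02 and 3.22 CPM with 25HC, 0.0255, 0.0996 and 0.0844 CPM with PAM3 and 1.17, 0.989 and 1.33 CPM untreated. Its rise with 25HC (edgeR adjusted p = 0.02) was lost without 25HC library 1, 25HC library 3 or untreated library 2. Fosl1, which encodes FRA-1, passed with 25HC and not with PAM3, with 4.55, 0.412 and 4.38 CPM with 25HC, 0.281, 0.171 and 0.169 CPM with PAM3 and 0.433, 0.0557 and 0.104 CPM untreated, where the 25HC library of mouse 2 fell among the untreated values. Egr2, an early growth response factor, fell with PAM3 alone, to 1.20, 0.455 and 0.788 CPM, against 4.95, 7.98 and 6.56 CPM with 25HC and 5.47, 6.86 and 8.68 CPM untreated.

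Other genes that passed with 25HC and not with PAM3 included Trem1, a receptor that amplifies inflammation, with 92.4, 27.4 and 56.6 CPM with 25HC, 9.58, 2.12 and 5.15 CPM with PAM3 and 8.99, 1.53 and 3.47 CPM untreated. Pdlim7, a cytoskeletal adaptor, had 90.8, 49.0 and 75.1 CPM with 25HC, 10.7, 8.15 and 9.11 CPM with PAM3 and 10.6, 7.58 and 8 CPM untreated, and differed directly by 2.95 ± 0.20 (edgeR adjusted p = 3.5e-08). In both genes the PAM3 libraries overlapped the untreated ones and the 25HC libraries lay above them all. Nt5e, the ectoenzyme CD73 that makes adenosine and whose PAM3 effect passed without replicate 2 of every group, had 7.64, 2.70 and 5.76 CPM with 25HC, 0.281, 0.0356 and 0.169 CPM with PAM3 and 0, 0.0975 and 0.0623 CPM untreated. Sqstm1, the autophagy receptor p62, had 1438, 944 and 1184 CPM with 25HC, 610, 449 and 621 CPM with PAM3 and 526, 659 and 528 CPM untreated. Dusp4, a MAP kinase phosphatase, had 141, 61.7 and 121 CPM with 25HC, 13.3, 3.25 and 4.44 CPM with PAM3 and 30.9, 5.04 and 13.9 CPM untreated, and with the replicate block its PAM3 effect passed as well (-1.25 ± 0.62, edgeR adjusted p = 0.093 and 0.0096 with the block).

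Maf and Ms4a6b fell with 25HC and missed the threshold with PAM3. Maf, a transcription factor of macrophage identity, had 122, 304 and 157 CPM with 25HC, 567, 641 and 605 CPM with PAM3 and 695, 694 and 735 CPM untreated, a direct difference of -1.64 ± 0.23 (edgeR adjusted p = 4e-05). Its PAM3 libraries lay below the untreated ones (-0.23 ± 0.23, edgeR adjusted p = 0.4). Ms4a6b, a paralog of Ms4a6c, had 66.5, 123 and 42.5 CPM with 25HC, 382, 341 and 413 CPM with PAM3 and 281, 440 and 296 CPM untreated. The calls of both held when any 1 library was left out.

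Cell cycle genes fell with PAM3. Of 30 genes of DNA replication and mitosis 27 fell with PAM3, none passed with 25HC in either direction, and 27 were higher with 25HC in the direct contrast, against 30.8% lower with PAM3 and 25.9% higher in the direct contrast over all tested genes. Median log2 fold changes were -0.27 with 25HC and -3.04 with PAM3. Counts of 26 to 28 were found when any 1 library was left out. With 25HC 3 fell with the replicate block and 13 without replicate 2 of every group. Cenpf, a kinetochore protein, had 30.2, 35.0 and 44.2 CPM with 25HC, 1.05, 0.598 and 0.647 CPM with PAM3 and 63.6, 47.2 and 89.0 CPM untreated. With 25HC its -0.87 ± 0.45 did not pass (edgeR adjusted p = 0.17) and passed with the replicate block (edgeR adjusted p = 0.0077), while the direct difference was 5.63 ± 0.53. Mki67, the proliferation antigen Ki-67, had 249, 234 and 390 CPM with 25HC, 37.3, 20.3 and 17.0 CPM with PAM3 and 489, 248 and 591 CPM untreated.

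Among the widest direct differences were genes induced by PAM3. Marco, a scavenger receptor for bacteria, had 0.554, 0.337 and 0.257 CPM with 25HC, 1074, 1158 and 1397 CPM with PAM3 and 0.278, 0.878 and 0.706 CPM untreated, a direct difference of -11.64 ± 0.41. Lcn2, the iron-withholding protein lipocalin 2, differed directly by -11.16 ± 0.65. Saa3, an acute-phase protein, had 2.73, 1.16 and 2.03 CPM with 25HC, 27663, 30298 and 41271 CPM with PAM3 and 1.92, 8.26 and 9.39 CPM untreated. Its fall with 25HC (edgeR adjusted p = 0.041) was lost without any 1 of the 25HC libraries, PAM3 library 2, untreated library 2 or untreated library 3. Trem2, a lipid receptor of macrophages, went the other way: 629, 814 and 658 CPM with 25HC, 19.5, 24.0 and 28.9 CPM with PAM3 and 773, 964 and 759 CPM untreated, a direct difference of 4.86 ± 0.15 (edgeR adjusted p = 8.3e-11).

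**Figure D4:**
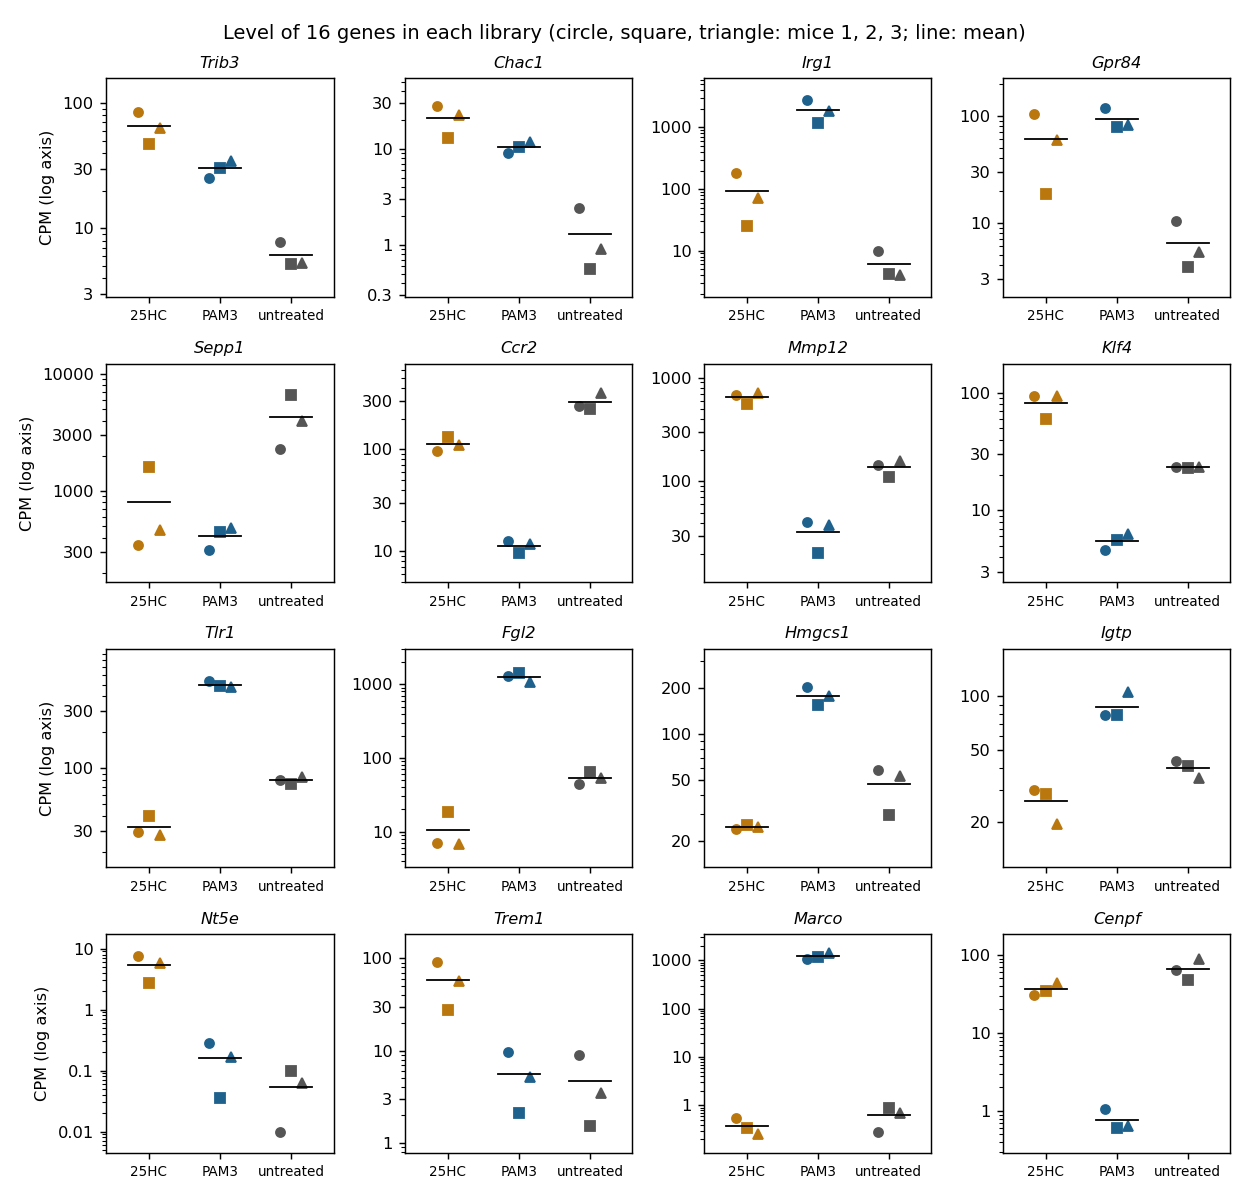
CPM of 16 genes on log axes in each library of 25HC alone, PAM3 alone and untreated cells (circle, square and triangle for mice 1, 2 and 3, line for the mean). Trib3 and Irg1 stood above untreated with both agents, Sepp1 and Ccr2 below, Mmp12 and Klf4 on opposite sides and Tlr1 and Fgl2 on the reverse ones, and the Nt5e value of untreated mouse 1, which is 0, is drawn at the lowest tick of its axis.

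The labelled cell type was checked against 18 macrophage genes, all of which had counts in each group. Their summed level was 27656 to 32765 CPM with 25HC, 45392 to 56926 CPM with PAM3 and 35572 to 46271 CPM untreated, led by Lyz2, the lysozyme of macrophages. With 25HC 7 of the 18 fell and 1 rose, against 11.4% and 14.8% of all tested genes. With PAM3 11 fell and 5 rose, against 30.8% and 31.3%. The 7 became 4 without 25HC library 1, 3 without 25HC library 3 and 4 without untreated library 2. The 1 became 0 without 25HC library 1, 25HC library 3, untreated library 1 or untreated library 3. It became 2 without PAM3 library 1, PAM3 library 2 or untreated library 2, and 3 without replicate 2 of every group. T cell genes summed to 0 CPM with 25HC, at most 0.0133 CPM with PAM3 and at most 0.0325 CPM untreated, with Cd3e and Cd3g at 0 in every group. Erythroid genes were at 0 with both agents. B cell genes summed to 4.59 to 5.88 CPM with 25HC, 7.27 to 15.3 CPM with PAM3 and 8.75 to 12.2 CPM untreated, led by Cd79b, with Pax5 at 0 with both agents.

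Genes of neutrophils and their precursors summed to 2.94 to 4.02 CPM with 25HC, 4.59 to 8.43 CPM with PAM3 and 5.69 to 8.52 CPM untreated. Fibroblast genes summed to 1.13 to 2.56 CPM with 25HC, 4.70 to 6.47 CPM with PAM3 and 2.20 to 3.75 CPM untreated, and endothelial genes to 7.03 to 8.51 CPM with 25HC, 1.45 to 3.71 CPM with PAM3 and 3.41 to 7.87 CPM untreated, led by Kdr with Emcn at 0 in every group. Mast cell and dendritic cell genes summed to at most 1.53 CPM in any library. The osteoclast list summed to 37.7 to 51.8 CPM with 25HC, 149 to 272 CPM with PAM3 and 21.9 to 27.9 CPM untreated, led by Mmp9, a gelatinase that macrophages also make and that rose with both agents. Of its 6 genes 3 were tested, and 2 of these rose with 25HC, against 14.8% of all tested genes. The part of other cells in the results above was not tested.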

How the data were processed

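The deposited table holds raw counts per gene for 30530 genes in 18 libraries, made by the authors from stranded, poly(A)-selected Illumina libraries, per the labels' protocols. The submitters' processing notes name FastQC 0.11.9, GSNAP, featureCounts of Subread 1.5.2, edgeR 3.26.8 and GRCm38 (mm10), with no role or order given. How strand was handled in counting is not stated, so reads of overlapping genes cannot be told apart.

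Genes passing edgeR's default filter over the 6 groups of 3 mice (12741) were fitted with edgeR 4.0.16 in R 4.3.3: TMM scaling, a robust quasi-likelihood fit with a mean per group over all 18 libraries (12 residual degrees of freedom, common dispersion 0.037) and Benjamini-Hochberg adjustment over all tested genes. Standard errors are Wald errors from the fitted weights and the moderated quasi-dispersion, and 95% intervals use them. The scripts were tested on simulated data. Alternatives used DESeq2 1.42.0 and other filters, libraries and designs. Python 3.11.15 and matplotlib 3.10.9 served for summaries and figures. Replicates are mice numbered in the labels, and no 2 libraries of the same group agreed within sampling noise.

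Whether mouse numbers pair the libraries was examined through the correlation of deviations from the group means over genes. Between 25HC and untreated libraries of mice 1, 2 and 3 it was 0.448, 0.581 and 0.348. It was 0.226, 0.306 and -0.0777 between PAM3 and untreated, and 0.196, 0.234 and 0.00334 between 25HC and PAM3. The number is read from the labels as the mouse, so the fit with a replicate block is given beside some of the results it changes. With it 4196 genes passed with 25HC against untreated. The genes higher with both agents numbered 1494 and those lower with both 1276.

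A gene of one pattern had to pass in the comparisons the pattern names. Genes outside lists were named by the size of their smaller or direct change, given 5 CPM in 1 group and no overlap of libraries. From each list up to 4 members were named by the direct adjusted p, and Ch25h, Tlr1, Tlr2 and Tlr6 were always named. Some further members were chosen after their values were seen. The libraries compared and the lists were chosen with earlier results of these data known. Of 576 list entries, 572 were matched and 542 tested. Symbols are as deposited, and some named genes are not reported here.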

Additional observations from a re-analysis of the deposited data

How the results depend on the processing

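No called gene that was followed across the alternatives changed sign, and the counts for 25HC were the least firm. When 1 library was left out, 25HC against untreated gave 1524 to 3801 calls, 973 to 2076 higher and 551 to 1725 lower. Genes moved alike numbered 681 to 1431 higher and 357 to 1154 lower, those of like size 74 to 255. Opposite genes numbered 86 to 192 higher with 25HC and 43 to 143 lower, and genes passing with 25HC but not with PAM3 162 to 322 higher and 103 to 284 lower. Omitting 25HC library 1 or 3 gave the fewest calls, and omitting 25HC library 2 or untreated library 1 raised the genes of like size to 255 and 244. The cause was not tested.

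With the replicate block, which pairs libraries by mouse, the opposite genes rose in number to 277 and 213. Without replicate 2 of every group there were 5103 calls with 25HC, 2412 of them lower, 1500 genes lower with both, 305 and 302 opposite genes, 245 of like size, and 514 higher and 432 lower with 25HC and not with PAM3. Requiring 2-fold in each effect left 248 and 297 genes moved alike, 71 and 28 opposite, 101 and 59 passing with 25HC only, and 828 higher with PAM3 only. With no filter on low counts 25HC gave 1310 higher and 1487 lower calls, so that lower calls became the majority. The other alternatives, DESeq2 among them, kept each main count within 1.5 times. A fit of only the 9 libraries compared gave 2370 calls with 25HC, against 3334 in the main fit. Depth limits genes with few counts, where the 25HC libraries, the shallowest of the B6 libraries compared, hold least.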

Other observations

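Of 13 genes of cholesterol esters and lipid droplets, 3 rose and 2 fell with 25HC, 3 rose and 5 fell with PAM3, and 7 were higher with 25HC in the direct contrast. Of all tested genes 14.8% rose and 11.4% fell with 25HC, 31.3% rose and 30.8% fell with PAM3 and 25.9% were higher in the direct contrast, so that all but the last of these counts lie near the share over all genes. The 2 falls with 25HC became 0 without 25HC library 1, 25HC library 3 or untreated library 3, and without replicate 2 of every group 6 rose with each agent. Soat2, an enzyme that esterifies cholesterol, had 15.8, 8.43 and 12.5 CPM with 25HC, 4.39, 3.97 and 4.14 CPM with PAM3 and 1.24, 0.516 and 0.685 CPM untreated, a direct difference of 1.56 (edgeR adjusted p = 0.0013). Plin2, which coats lipid droplets, had 1091, 948 and 968 CPM with 25HC, 350, 347 and 434 CPM with PAM3 and 779, 850 and 710 CPM untreated. Lipa, the lysosomal lipase that frees cholesterol from esters, had 1758, 1807 and 1746 CPM with 25HC, 414, 422 and 493 CPM with PAM3 and 1867, 1412 and 1741 CPM untreated.

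Of 26 lysosomal genes, 15 fell with PAM3 and 11 were higher with 25HC in the direct contrast, against 30.8% and 25.9% of all tested genes. With 25HC 5 fell, against 11.4%, a count that became 8 without replicate 2 of every group, 0 without 25HC library 1 or 25HC library 3, 1 without untreated library 3, 2 without untreated library 1 and 3 without untreated library 2. Gpnmb, a lysosomal glycoprotein, had 2217, 3113 and 2129 CPM with 25HC, 460, 307 and 450 CPM with PAM3 and 2509, 3364 and 2270 CPM untreated. Gpr183, a receptor for oxysterols made from 25HC, had 35.4, 42.8 and 39.6 CPM with 25HC, 3.40, 2.73 and 3.77 CPM with PAM3 and 42.6, 32.4 and 40.5 CPM untreated. It fell with PAM3 by 3.56 on the log2 scale, and the 25HC libraries overlapped the untreated ones. Of 32 genes of the respiratory chain 18 rose with PAM3 and 1 with 25HC, and 14 were lower with 25HC in the direct contrast, against 31.3%, 14.8% and 24.3% of all tested genes. The 1 became 3 without replicate 2 of every group and 2 without PAM3 library 1, PAM3 library 3 or untreated library 2.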
